A study of Rattus norvegicus with 3 samples.

Results

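The genes described here are 10 targets of the transcription factor p53 whose products act in cell death, namely Bbc3, Bax, Pmaip1, Fas, Eda2r, Tnfrsf10b, Aen, Perp, Phlda3 and Apaf1. They were chosen by gene symbol, and all 10 were found among the 18425 genes measured. The data came from retinas of wild-type Sprague Dawley rats collected at postnatal day 4 (P4), after 1 µl had been injected into the vitreous at P1. The buffer library received citrate buffer (pH 4.5), the saline library received saline, and the STZ library received 10 µg of streptozotocin (STZ), a DNA-alkylating glucosamine analog that was dissolved in the same citrate buffer. In the paper's intravitreal experiments, an animal received STZ in its right eye and citrate buffer in its left. Whether the sequenced retinas were paired in this way is not stated. Each condition had 1 library, and the number of animals behind a library is not given in the sources used here. There is therefore no replicate check, no p-value, and every comparison below is between libraries and not between conditions.

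p53 is a sequence-specific transcription factor that is stabilised when DNA is damaged. Its death targets act on several levels: BH3-only proteins and Bax permeabilise the mitochondrial outer membrane, death receptors pass a signal from the cell surface to caspases, and Apaf1 assembles the apoptosome once cytochrome c has left the mitochondria. In the newborn rodent retina many progenitors are still dividing, and developmental cell death is part of normal retinal maturation.

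Of the 10 genes, 5 were above the upper fold threshold in STZ against buffer (Phlda3, Eda2r, Pmaip1, Bbc3 and Aen) and 4 in STZ against saline, without Aen. None was below the lower threshold in either comparison, although Tnfrsf10b and Perp passed it in both with a pseudocount of 0.1, and Tnfrsf10b against buffer also on the CPM and TPM scales. The fold is (FPKM + 1)/(FPKM + 1), where FPKM is the number of fragments scaled to transcript length and library size, and its thresholds are 1.54 and 0.65. Among all genes measured, 2.25% were above and 1.04% were below the thresholds in STZ against buffer, and 2.04% above and 1.75% below in STZ against saline. In saline against buffer none of the 10 genes was past a threshold, where 1% of all genes were above and 0.429% below. The same 4 genes were above the threshold against each control, compared with 1.39% of all genes. The 10 genes had a median log2 fold of 0.73 for STZ against buffer, beside 0.02 for all genes. It was 0.56 for STZ against saline, beside 0.00, and 0.12 for saline against buffer, beside 0.01. Both STZ comparisons share the STZ library, so their values are given side by side and do not replicate each other.

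The pseudocount of 1 holds the fold of weakly expressed genes near 1. The count ratio was therefore also computed, by dividing the gene's share of all reads in one library by its share in the other, and its 95% interval (exact, after Clopper and Pearson) covers counting error only. In STZ against buffer this interval lay above 1 for 8 of the 10 genes, below 1 for Tnfrsf10b and across 1 for Perp, beside 21.7% of all genes above and 15.5% below. In STZ against saline it lay above 1 for the same 8 genes and below 1 for the other 2, beside 22.1% of all genes above and 19.5% below. In saline against buffer it lay above 1 for Aen, below 1 for Eda2r and across 1 for 8, beside 13.3% of all genes above and 9.81% below.

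**Figure D1:**
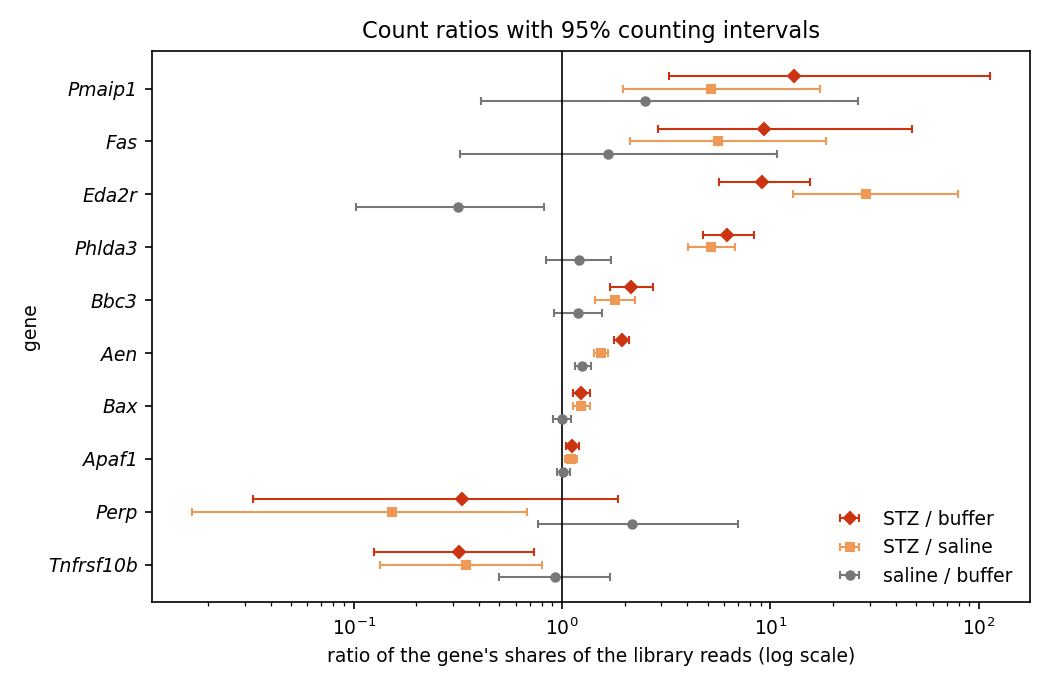
Count ratio of each of the 10 genes (horizontal log axis, no unit) for the STZ library against each control and for saline against buffer, with bars for the exact 95% counting interval and a vertical line at 1. The top 8 genes lie right of the line in both STZ comparisons, from 1.12 for Apaf1 to 13 for Pmaip1 against buffer, and Tnfrsf10b lies left of it at 0.319.

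p53 binds a pair of 10-letter motifs, each made of 3 purines, a C, 2 letters that are A or T, a G and 3 pyrimidines. The promoter windows of 7 of the 10 genes were available from RefSeq (rat build GRCr8), from 250 bases before to 50 after the gene's start, and were searched for that motif, which reads the same on both strands. The windows of Bbc3, Bax and Tnfrsf10b were not analysed here. An exact 10-letter motif was found in 1 of the 7 windows, that of Aen, and in 7.98% of the 33469 windows searched. Sequences are shown for Aen, as the window with the motif, and for Phlda3 and Eda2r, as the 2 genes with the highest folds in STZ against either control. The 250 bases before the start are printed 5′ to 3′ on the gene's strand. They are chr1:142224283-142224532 on the plus strand for Aen, chr13:49744753-49745002 on the plus strand for Phlda3 and chrX:66280621-66280870 on the minus strand for Eda2r, and capitals mark the pair of p53 motifs.
Aen: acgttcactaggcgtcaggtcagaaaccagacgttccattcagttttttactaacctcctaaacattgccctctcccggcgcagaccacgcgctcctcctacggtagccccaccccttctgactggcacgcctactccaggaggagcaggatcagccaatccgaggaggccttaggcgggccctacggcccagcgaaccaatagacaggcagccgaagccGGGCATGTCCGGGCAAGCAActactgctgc
Phlda3: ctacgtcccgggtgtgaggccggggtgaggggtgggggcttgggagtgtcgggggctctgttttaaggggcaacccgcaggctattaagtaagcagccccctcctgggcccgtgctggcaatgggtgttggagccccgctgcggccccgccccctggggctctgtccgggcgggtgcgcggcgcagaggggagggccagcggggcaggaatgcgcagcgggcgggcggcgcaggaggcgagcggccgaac
Eda2r: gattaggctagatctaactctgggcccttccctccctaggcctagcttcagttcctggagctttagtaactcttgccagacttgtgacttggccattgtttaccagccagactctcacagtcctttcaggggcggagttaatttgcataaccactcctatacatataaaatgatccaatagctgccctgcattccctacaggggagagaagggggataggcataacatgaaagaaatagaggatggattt

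The capitals in the Aen promoter are a pair of adjoining motifs from position -30 to -11 before the start, with 2 mismatches in 20 letters and the C and G of both motifs kept. A pair with at most 2 mismatches was found in 0.335% of all windows. The Pmaip1 window held a pair with 3 mismatches from -170 to -151, and 1.34% of all windows held a pair with at most 3. The best pairs had 6 mismatches in Apaf1 and Perp, 8 in Fas and 11 in Phlda3, and Eda2r had none with the C and G kept. A match is a description of letters, and a window without one says nothing about sites elsewhere in the gene.

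In all libraries Bax was the most abundant of the 10 genes per length and contributed 62% of their summed FPKM in the buffer library, 58.3% under saline and 49.7% under STZ. That sum was 103.8 FPKM in buffer, 110.3 FPKM in saline and 160.5 FPKM in STZ. At the other end, Tnfrsf10b, Eda2r, Perp, Pmaip1 and Fas were under 1 FPKM in both controls, and 3 genes were under 1 FPKM in STZ, where the median over all genes was 7.74 FPKM. In buffer the order of levels was Bax, Aen, Apaf1, Bbc3, Phlda3, Tnfrsf10b, Eda2r, Perp, and then Pmaip1 and Fas at the same value. The counting intervals of the FPKM values overlapped between Tnfrsf10b and Eda2r, between Eda2r and Perp, and among Perp, Pmaip1 and Fas. In STZ Phlda3 stood in the third place, with an interval that overlapped that of Apaf1. Bbc3 and Eda2r followed, and then Pmaip1, Fas, Tnfrsf10b and Perp, of which Fas and Tnfrsf10b, and Tnfrsf10b and Perp, overlapped.

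**Figure D2:**
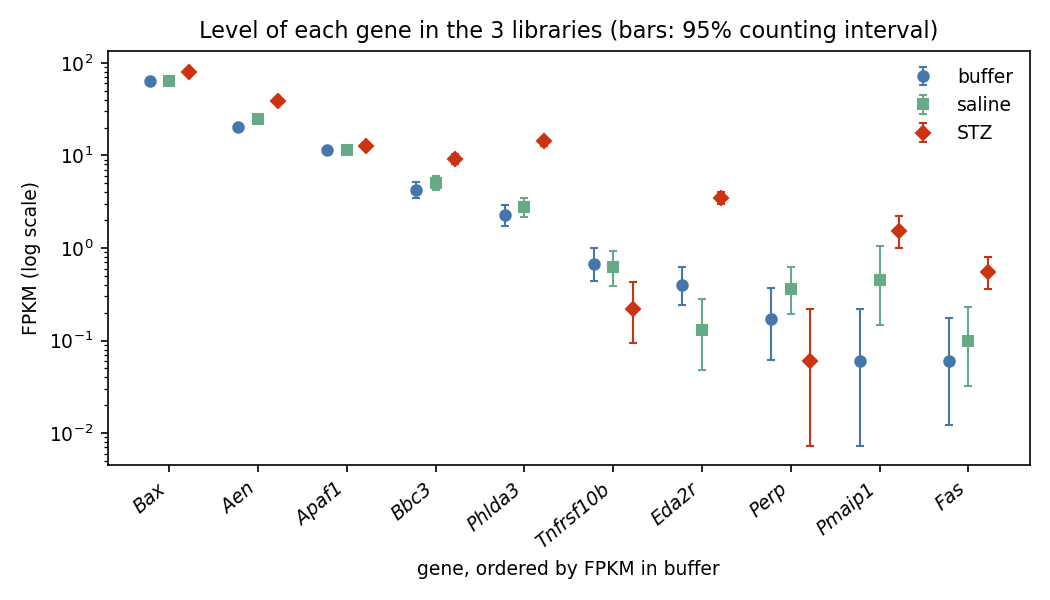
FPKM (vertical log axis) of each of the 10 genes in the buffer, saline and STZ libraries, ordered by the level in buffer, with bars for the exact 95% counting interval of the reads. The STZ point is the highest for 8 genes and the lowest for Tnfrsf10b and Perp, and the levels in buffer run from 64.3 for Bax to 0.060 for Pmaip1 and Fas.

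Among the members of the Bcl2 family, Bbc3 and Pmaip1 were above the threshold and Bax was not. Bbc3 encodes Puma, a BH3-only protein that binds the anti-apoptotic Bcl2 proteins. It had 106 reads in buffer, 126 in saline and 227 in STZ, which is 4.28, 5.09 and 9.14 FPKM. The STZ library was high and the controls were close to each other, with a count ratio of 1.19 (interval 0.911 to 1.55) in saline against buffer. The fold was 1.92 against buffer and 1.67 against saline, and the count ratio was 2.14 (1.69 to 2.72) against buffer and 1.80 (1.44 to 2.25) against saline. Of 14885 genes that averaged 10 or more reads, 456 had a higher count ratio against buffer, or 3.06%.

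Pmaip1 encodes Noxa, a BH3-only protein that binds Mcl1. It had 2 reads in buffer, 5 in saline and 26 in STZ. Both controls rest on very few reads, and the STZ library stood above them. The count ratio was 13 (3.25 to 113) against buffer and 5.19 (1.96 to 17.3) against saline. Its FPKM did not keep a fixed relation to its reads: 1 FPKM was worth 33.3 reads in buffer, 11.1 in saline and 17.1 in STZ, whereas the value stayed within 5% between libraries for 92.1% of 12256 genes of at least 1 FPKM. The deposited FPKM were 0.060, 0.45 and 1.52, with folds of 2.38 against buffer and 1.74 against saline.

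Bax, the pore-forming effector of the family, had 850 reads in buffer, 848 in saline and 1057 in STZ. Its level was 64.3 FPKM in buffer, 64.4 in saline and 79.8 in STZ, so that the controls agreed within counting error and the STZ library was higher. The fold was 1.24 against either control, under the threshold, and the count ratio of 1.24 had an interval from 1.13 to 1.36 in both comparisons. On the FPKM scale this was a difference of 15.4 against buffer, compared with 4.86 for Bbc3 and 1.46 for Pmaip1.

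The partners of these proteins in the Bcl2 family were measured as a list of 12 genes. Of these, 1 was above the threshold in STZ against buffer and none below, beside 2.25% and 1.04% of all genes. The median log2 fold of the 12 was 0.03. The gene above was Bcl2a1, an anti-apoptotic member found in blood and immune cells, with a fold of 2.50 from 3 reads in buffer, 9 in saline and 23 in STZ. Bak1, the other pore-forming effector, had a fold of 1.10. The anti-apoptotic genes Bcl2, Bcl2l1 and Mcl1 had folds of 0.956, 1.16 and 0.923. The lowest fold of the list was that of Bik, a BH3-only gene, at 0.912.

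The receptor genes did not move together. Eda2r and Fas were higher in the STZ library and Tnfrsf10b was lower. Together these genes came to 1.14 FPKM in buffer, 0.85 FPKM in saline and 4.22 FPKM in STZ. The higher sum in STZ came mainly from Eda2r. In FPKM, STZ minus buffer was 3.05 for Eda2r, 0.49 for Fas and -0.46 for Tnfrsf10b. Eda2r encodes a receptor of the tumour necrosis factor family that binds ectodysplasin A2. It had 19 reads in buffer, 6 in saline and 173 in STZ, or 0.40, 0.13 and 3.45 FPKM. The STZ library was the highest by far, and saline was below buffer with a count ratio of 0.316 (0.103 to 0.823). The count ratio of STZ was 9.09 (5.65 to 15.5) against buffer and 28.8 (12.9 to 79.5) against saline, so its size depended on the control, while the folds were 3.18 and 3.94.

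Fas encodes the receptor of Fas ligand. It had 3 reads in buffer, 5 in saline and 28 in STZ, at 0.060, 0.10 and 0.55 FPKM. The STZ library was above both controls, which did not differ beyond counting error. The folds of 1.46 and 1.41 stayed under the threshold because the pseudocount exceeds the gene's level, while the count ratio was 9.32 (2.88 to 47.9) against buffer and 5.59 (2.13 to 18.5) against saline. On the CPM and TPM scales the fold against buffer passed the threshold, at 2 and 1.86. Fas overlaps a small nuclear RNA gene in the annotation, and reads of overlapping genes cannot be told apart without knowledge of the strand.

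Tnfrsf10b encodes the receptor of the ligand Trail. It had 25 reads in buffer, 23 in saline and 8 in STZ, at 0.68, 0.62 and 0.22 FPKM. The controls were alike within counting error and the STZ library was low, with a count ratio of 0.319 (0.125 to 0.731) against buffer and 0.347 (0.134 to 0.804) against saline, which no longer excluded 1 at the 99% level. Of the 14885 genes, 85 had a lower ratio against buffer. Its fold of 0.726 was above the lower threshold. Tnfrsf10b overlaps the protein-coding gene Rhobtb2, which had 1123, 1217 and 1283 reads and a fold of 1.10, so the low value in STZ was not shared by its neighbour.

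None of the 12 ligands and adaptors of the receptors measured was past a threshold in STZ against buffer, and neither were Fas and Tnfrsf10b. Folds of the 12 ran from 0.936 for the adaptor Cradd to 1.21 for Cflar, a caspase-8 inhibitor. By count ratio, the interval against buffer lay above 1 for 2 of the 12 and below 1 for none, beside 21.7% and 15.5% of all genes. Against saline it lay above 1 for 1 and below 1 for 5, beside 22.1% and 19.5% of all genes. Faslg, the ligand of Fas, had 53 reads in buffer, 95 in saline and 62 in STZ. Its count ratio in STZ against saline was 0.651 (0.465 to 0.906). Eda, whose products include the ligand of Eda2r, had 91, 98 and 109 reads and a fold of 1.14. Tnfsf10, which encodes Trail, had 1, 10 and 2 reads, with a count ratio of 0.2 (0.0213 to 0.936) in STZ against saline. Fadd, the adaptor of Fas and of the Trail receptor, had a fold of 0.957, and Casp8, the caspase it recruits, had 15, 21 and 18 reads.

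Apaf1, the scaffold of the apoptosome, had the count ratios nearest to 1 among the 10 genes in both STZ comparisons. It had 1491 reads in buffer, 1509 in saline and 1669 in STZ, at 11.5, 11.6 and 12.7 FPKM. The STZ library was slightly higher than both controls, with a count ratio of 1.12 (1.04 to 1.20) against buffer and 1.10 (1.03 to 1.18) against saline, and 31.1% of the 14885 genes had a higher ratio against buffer. Among 15 genes of the apoptosome, caspases and their inhibitors, none was past a threshold in STZ against buffer and the median log2 fold was -0.01. These 15 leave out Casp6, which had a fold of 5.20 and is given below with the other p53 targets. Cycs, cytochrome c, had the highest fold, 1.41, and its read counts were fractional. Casp9, the initiator caspase that Apaf1 recruits, had a fold of 0.972. Casp2 had the lowest fold at 0.739.

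Phlda3 encodes a small pleckstrin homology protein that competes with Akt for membrane lipids and so restrains Akt signalling. At a pseudocount of 1 it had the largest fold of the 10 genes against either control, 4.61 against buffer and 4.06 against saline. By count ratio Pmaip1, Fas and Eda2r were above it against buffer, as were Pmaip1 and Eda2r by the fold at a pseudocount of 0.1. The estimated reads were 60.42 in buffer, 71.87 in saline and 373.63 in STZ, at 2.30, 2.75 and 14.2 FPKM. The STZ library was far above the controls, which did not differ beyond counting error. The count ratio was 6.22 (4.73 to 8.32) against buffer and 5.18 (4.02 to 6.77) against saline, and 89 of the 14885 genes had a higher one against buffer. Phlda3 was the only one of the 10 genes with fractional read counts, and it overlaps the ribosomal protein pseudogene Rpl11-ps12 in the annotation. How the fractional counts arose is not given in the sources used here.

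Akt kinases and the lipid enzymes around them were mostly a little lower in the STZ library. Of 7 genes, 1 was above the threshold against buffer and none below, beside 2.25% and 1.04% of all genes. The median log2 fold of the 7 was -0.11. Akt1 had a fold of 0.915, and the lipid kinase gene Pik3ca had the lowest of the list at 0.846. The gene above the threshold was Inpp5d, a lipid phosphatase of blood and immune cells, with 66, 82 and 260 reads and a fold of 2.14.

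Aen encodes a nuclease that takes part in the breakdown of DNA during apoptosis. It had 917 reads in buffer, 1148 in saline and 1771 in STZ, at 20.1, 24.9 and 38.8 FPKM. The libraries were ordered buffer, saline, STZ, and all 3 differed beyond counting error. The count ratio was 1.93 (1.78 to 2.09) in STZ against buffer, 1.54 (1.43 to 1.66) in STZ against saline and 1.25 (1.15 to 1.37) in saline against buffer. The fold was 1.89 against buffer, above the threshold, and against saline it rounded to 1.54, just under it. Isg20, an exonuclease gene next to Aen, also had a higher value in STZ, with 34, 52 and 79 reads and a fold of 1.97, while Det1 on the other side had a fold of 1.02.

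Perp encodes a membrane protein of desmosomes that is a p53 target in several epithelia. It had 6 reads in buffer, 13 in saline and 2 in STZ, at 0.17, 0.36 and 0.060 FPKM, and was the only one of the 10 genes with a mean under 10 reads. The saline library was the highest and the STZ library the lowest. Saline did not differ from buffer beyond counting error, with a count ratio of 2.17 (0.769 to 6.96). The count ratio of STZ was 0.333 (0.0328 to 1.86) against buffer and 0.153 (0.0168 to 0.678) against saline, and against buffer no difference was detectable at this depth. Markers of the ciliary, iris and pigment epithelium were also highest in the saline library, with 61.0 FPKM in all in buffer, 231 FPKM in saline and 61.9 FPKM in STZ. Of these markers, 8 of 11 were above the threshold in saline against buffer, beside 1% of all genes. Surface epithelium is rich in Perp, and its 12 measured markers came to 48.0 FPKM in buffer, 48.0 FPKM in saline and 40.4 FPKM in STZ, of which Krt19 had 870, 828 and 726 reads. Krt18, with 29, 67 and 25 reads, was the only marker of these 12 with an interval above 1 in saline against buffer. No marker had its interval below 1 in that comparison. Levels varied within this list. Krt15 had 284, 263 and 232 reads, and Cdh1 had 50, 58 and 72. By contrast, Krt14 was at 0 reads in both controls and 1 in STZ, and Tp63 was at 0 in the buffer and STZ libraries and at 2 in saline. The part of these cells in the Perp reads was not tested.

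**Figure D3:**
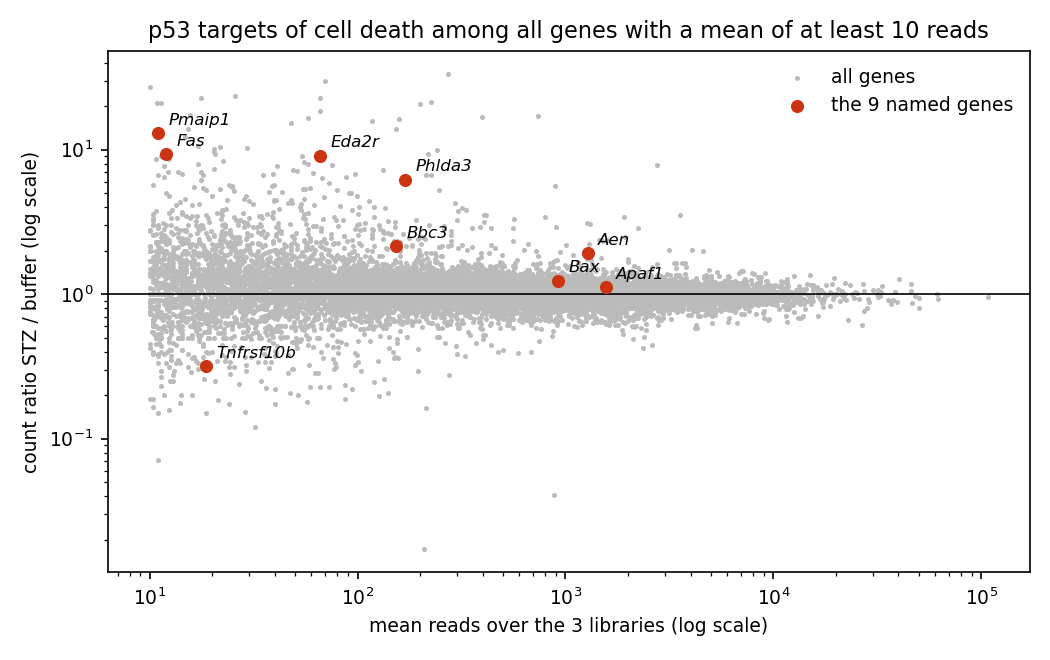
Count ratio of STZ against buffer (vertical log axis) against the mean reads over the 3 libraries (horizontal log axis) for 14834 genes that averaged 10 or more reads, with 9 of the 10 genes in red (Pmaip1, Fas and Eda2r rest mostly on their STZ reads, and the mean of Pmaip1 and of Fas reaches 10 only through them) and 51 further genes with 0 reads in either library not drawn. Pmaip1, Fas, Eda2r and Phlda3 lie well above the dense band of genes around 1, Bbc3 and Aen lie just above it, Bax and Apaf1 lie inside it, and Tnfrsf10b lies below it.

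Neighbouring genes give a limited view of whether a whole region differed. On each side, only the nearest gene within 100 kb that averaged 10 or more reads was taken. This gave 13 neighbours of 7 of the 10 genes, and other genes of the regions were not looked at. Folds of the 13 in STZ against buffer ran from 0.60 to 1.97. Of them, 1 was above the upper threshold (Isg20) and 1 below the lower one, beside 2.25% and 1.04% of all genes. The neighbour below was Acta2, smooth muscle actin, next to Fas, with 32, 32 and 9 reads. The neighbours of Phlda3 had folds of 0.905 (Csrp1) and 1.18 (Tnni1), and those of Bbc3 0.892 (Ccdc9) and 0.972 (Sae1). The order of neighbours was taken from RefSeq, on another build than that of the files, and the neighbours named were chosen after their values were seen.

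Regulators of p53 were within the thresholds. None of the 9 genes of this list was past one in STZ against buffer, with a median log2 fold of -0.10, and their folds ran from 0.865 for the checkpoint kinase Chek1 to 1.06 for Mdm2, the ubiquitin ligase of p53. The interval of the count ratio lay below 1 for 6 of these genes and above 1 for none, beside 15.5% and 21.7% of all genes. RNA levels of these genes do not report the activity of their proteins.

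Of 23 p53 targets of arrest, repair and feedback, 6 were above the threshold in STZ against buffer and none below. Among all genes, 2.25% were above and 1.04% below. The median log2 fold of the 23 was 0.09. The 6 were Ccng1, a cyclin, at 3.45, Cdkn1a, the p21 inhibitor of cell cycle kinases, at 3.24, the epoxide hydrolase Ephx1 at 2.28, the stress protein Sesn2 at 1.66, and the kinase Plk2 and the stress gene Gadd45b at 1.57 each. Cdkn1a had 434 reads in buffer, 449 in saline and 1496 in STZ, and Ccng1 had 1942, 1896 and 6882. In contrast Mdm2, which stands in both lists, had 1817, 1784 and 1904 reads, and the lowest fold of the list was that of the kinase Plk3 at 0.789. Against saline 4 of the 23 were above the threshold, beside 2.04% of all genes. Sesn2, Plk2 and Gadd45b were not among them, with folds of 1.48, 1.5 and 1.22. The 4 included Gdf15, a stress cytokine with 23.97, 11.61 and 30.59 estimated reads, whose fold was 1.71 against saline and 1.17 against buffer.

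Of 14 other p53 targets linked to cell death, 1 was above and 1 below the thresholds in STZ against buffer. The shares of all genes were 2.25% and 1.04%. The median log2 fold of the 14 was 0.03. The gene above was Casp6, an executioner caspase, with a fold of 5.20 from 6.59 estimated reads in buffer, 32.76 in saline and 159.22 in STZ, and these counts are fractional. The gene below was Bcl2l11, which encodes the BH3-only protein Bim, with 684, 735 and 439 reads, a fold of 0.542 and a count ratio of 0.641 (0.567 to 0.723). Among the genes listed here as p53 targets, those of the Bcl2 family lay on either side of 1 in STZ against buffer. Bbc3, Pmaip1 and Bax were higher in the STZ library, with count ratios of 2.14, 13 and 1.24. Bim was lower, and the BH3-only gene Bid slightly so at 0.914 (0.839 to 0.997). The FPKM of Bim, at 8.54, 10.26 and 4.17, did not keep a fixed relation to its reads, and its fold lay further from 1 than its count ratio. Whether p53 acts on Bim in these libraries was not tested.

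**Figure D4:**
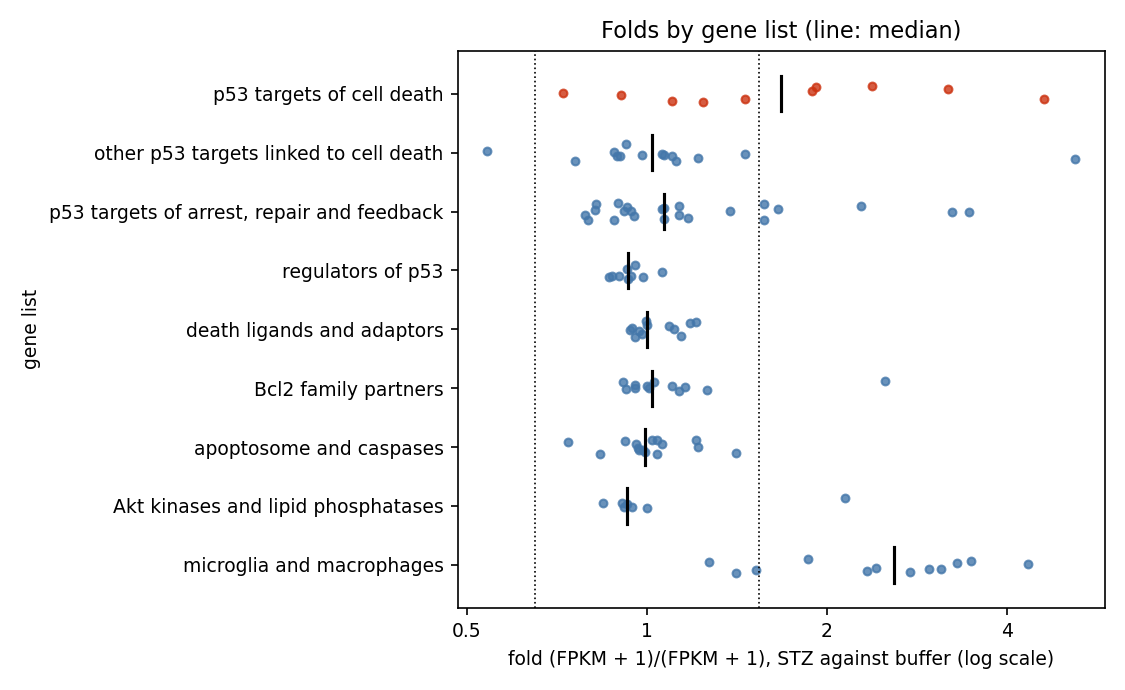
Fold of single genes in STZ against buffer (horizontal log axis, one point per gene, vertical jitter without meaning) for the 10 genes and 8 other lists, with a black line at each median and dotted lines at the thresholds of 1.54 and 0.65. The 10 genes range from 0.726 to 4.61, the p53 regulators stay between 0.865 and 1.06, and the microglia markers range from 1.27 to 4.34.

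Markers of other cell types differed between the libraries beside these genes. Retina markers were present in all libraries, and 13 genes came to 1760 FPKM in buffer, 1690 FPKM in saline and 1780 FPKM in STZ. Single retina markers differed in STZ against buffer, with intervals above 1 for 7 and below 1 for 6, beside 21.7% and 15.5% of all genes. Folds of the retina markers ran from 0.603 for Lhx2, a progenitor factor, to 1.62 for Rcvrn, a photoreceptor gene. Of 12 markers of microglia and macrophages, 9 were above the threshold in STZ against buffer and all 12 had an interval above 1. Among all genes these shares were 2.25% and 21.7%. The 12 markers summed to 61.5 FPKM in buffer, 79.1 FPKM in saline and 197 FPKM in STZ, and none was at 0. The microglial gene Aif1 had 86, 95 and 273 reads. Lens markers summed to 14.4, 41.2 and 223 FPKM, and those of vessels to 127, 135 and 86.7 FPKM. Kdr alone had 105.92, 117.43 and 80.18 FPKM, so the vessel sum mainly follows that gene. Its count ratio in STZ against buffer was 0.757, while those of the other vessel markers ran from 0.196 for Cldn5 to 0.524 for Pecam1. All 7 vessel markers had an interval below 1 in STZ against buffer and 4 were below the lower threshold, with Cldn5 lowest at a fold of 0.294. The shares of all genes were 15.5% and 1.04%. Of T and NK cell markers only Nkg7 was measured, with 0, 1 and 0 reads. In bulk tissue fewer cells of a type and less RNA per cell cannot be told apart, and the part of these cells in the values of the 10 genes was not tested.

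Of those of the 10 genes that averaged 50 or more reads, Eda2r had the highest count ratio against buffer and was used to look for genes of like pattern. The 3 genes nearest to it in log2 FPKM across the 3 libraries, after centring each gene on its mean, were found among 12797 genes that averaged 50 or more reads. They were RT1-DMa, a chaperone of antigen loading, with 16, 2 and 144 reads at a distance of 0.91 (log2), Fcgr3a, an antibody receptor of phagocytes, with 25, 19 and 159 reads at 1.28, and Ncf1, a subunit of the phagocyte oxidase, with 75, 65 and 501 reads at 1.34. Eda2r, RT1-DMa and Fcgr3a reach that mean only through the STZ library, so the filter itself favours genes that are low in both controls and high in STZ. The likeness rests on 3 libraries and is a description.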

How the data were processed

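Retinal RNA was sequenced from 3 libraries, 1 each for buffer, saline and STZ. The authors trimmed the reads, mapped them with TopHat2 with up to 2 mismatches, kept uniquely mapped ones and calculated FPKM in R. The submitters' processing notes name FastQC, TopHat2 and the build rn6, and the gene annotation is not given in the sources used here. The authors deposited estimated counts of reads per gene, which need not be whole, beside FPKM and TPM. The table of the series and those of the single libraries held equal values (largest difference 0). Whether counting used strand is not given in the sources used here. Library totals were 21992702 reads in buffer, 21977843 in saline and 22031249 in STZ.

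Members and gene lists were chosen with earlier results of these data known. Folds were (FPKM + 1)/(FPKM + 1), taken past 1.54 or 0.65. Counts were rounded to whole numbers before exact Clopper-Pearson intervals at the 95% level were computed (scipy 1.17.1, Python 3.11.15). Sequencing reads are not independent molecules. No test across genes was run, since a condition had 1 library, and no library could be left out. Calculations were tested on simulated data. The deposited TPM served only as an alternative scale, beside CPM and edgeR 4.0.16 (TMM) and DESeq2 1.42.0 size factors.

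Named were all 10 members. From the lists, Mdm2, Cdkn1a and Ccng1, the direct partners of the members, genes past a threshold in STZ against either control and the highest and lowest fold of a list could be named, with the 3 genes most like the member of highest ratio. Of 18425 gene identifiers, 17120 matched RefSeq (GRCr8), which gave promoter windows and neighbours. A few genes of the lists are not reported here and entered no list value. The coordinates printed are of that build and not of rn6.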

Additional observations from a re-analysis of the deposited data

How the results depend on the processing

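In STZ against buffer, the folds of 8 genes stayed above 1 and those of Tnfrsf10b and Perp below 1 under all 6 settings tried. This says little about direction, since a change of pseudocount cannot turn it. The TMM factors, 0.985 for buffer and 1.01 for STZ, were too close to turn any of these folds. CPM and TPM rescale the same reads. The size did depend on the pseudocount: at 0.1 the fold against buffer was 10.1 for Pmaip1, 7.10 for Eda2r and 4.06 for Fas. With the mean of both controls that of Aen was 1.70. With a pseudocount of 0.1, 8 genes were past a threshold against buffer (6 above and 2 below), 8 against saline (6 and 2) and 3 for saline against buffer, beside 12.3%, 13.8% and 8.98% of all genes. The genes below were Tnfrsf10b and Perp. With thresholds of 2 and 0.5 it was 3 against buffer (Pmaip1, Eda2r and Phlda3) and 2 against saline, beside 1.18% and 1.17%. On the TPM scale it was 7 against saline, with Tnfrsf10b below, and 1 for saline against buffer (Pmaip1), beside 5.91% and 2.61%. CPM, TMM, DESeq2 size factors, the mean of both controls and a minimum mean of 10 reads moved no count by over 1.5 times. Against buffer, 7 genes were past a threshold on the CPM scale and 7 on the TPM scale, with Fas above and Tnfrsf10b below. For TPM the share of all genes was 4.93%. The median log2 fold against buffer, 0.733, did move. It was 0.918 with a minimum mean of 10 reads, 1.012 with a pseudocount of 0.1, 0.915 with TPM and 0.709 with TMM. At the 99% level Tnfrsf10b against saline lost its call. Depth limits Perp, Pmaip1 and Fas, with 2 to 28 reads. No paired analysis was possible because each condition has 1 library and no result comes from a test.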
